A study of Homo sapiens with 12 samples.

Results

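The 10 genes described here encode the erythroid transcription factor GATA1, its relative GATA2, the proteins that assemble with them on chromatin, and regulators that act beside them: GATA1, GATA2, ZFPM1, TAL1, LMO2, LDB1, RUNX1, NFE2, GFI1B and HEMGN. They were taken by gene name from a table of 58735 genes, and each name matched 1 row. No level was part of the rule, but earlier results of these data were known when the genes were chosen. All 10 passed the filter on low counts, which kept 20821 genes. The RNA came from K562, an established human erythroleukemia line driven by the BCR-ABL1 fusion kinase, which nilotinib inhibits, and able to make hemoglobin in response to hemin. There were 12 libraries in 4 groups of 3 biological replicates. Mock DMSO cells received the DMSO vehicle and no hemin, mock nilotinib cells received 0.1 μM nilotinib and no hemin, hemin DMSO cells received vehicle and then 50 μM hemin for 24 h, and hemin nilotinib cells received 0.1 μM nilotinib and then 50 μM hemin for 24 h. Every group is the same cell line, and vehicle and drug were given for 24 h before hemin. The study's methods place the mock collection at 0 h of hemin, so a difference between mock and hemin libraries also holds the difference in time. That applies as well where the nilotinib effects with and without hemin are compared. These are leukemic cells with an active kinase fusion, not normal erythroid progenitors.

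GATA1 is the factor that drives red cell differentiation, and GATA2 is the factor that holds earlier progenitors, with GATA1 taking the place of GATA2 on shared sites as cells mature. GATA1 works with the cofactor FOG1 (the product of ZFPM1) and with a pentameric assembly in which TAL1 and an E protein bind DNA, LMO2 bridges them to GATA1, and LDB1 dimerizes to join distant elements such as the globin locus control region to promoters. NFE2 pairs with small MAF proteins at that same control region, GFI1B represses progenitor genes through the LSD1 and CoREST proteins, RUNX1 acts with CBFB in stem cells and megakaryocytes, and HEMGN (hemogen) is a nuclear protein of erythroid cells.

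Library totals ran from 33457078 to 50506990 counts, and between-library scaling was by TMM, so levels are given as CPM, the counts of a gene scaled to a common library size. The gene counts of the least alike replicates, hemin nilotinib 1 and 3, differed far beyond counting noise, as did those of every other replicate pair, so all 12 libraries were counted as separate samples. The summed level of 4 erythroid markers (HBG1, HBG2, HBZ and TFRC) was 587 to 1275 CPM in mock DMSO, 6673 to 8433 in mock nilotinib, 843 to 1035 in hemin DMSO and 5893 to 13405 in hemin nilotinib. Hemin alone raised 3 of these 4 (log2 fold changes 0.84 for HBG1, 0.96 for HBG2 and 1.22 for HBZ) while TFRC did not pass (-0.85, adjusted p = 0.162), so the globin markers went up where 9 of the 10 regulators went down. Sums over markers of other lineages were low. For 6 granulocyte and monocyte markers (MPO, ELANE, AZU1, CSF3R, CD14 and LYZ) the sums were 51.4 to 67.2, 15.7 to 25.9, 39.9 to 56.1 and 5.49 to 21.3 CPM in the same order. These markers did not move as 1: CSF3R and LYZ were lower in both nilotinib groups, and MPO and ELANE averaged at most 0.17 CPM in any group. AZU1 averaged 12.6, 16.0, 5.28 and 9.42 CPM in that order of groups, and CD14 averaged 0.50, 0.21, 9.41 and 0.55. For 6 megakaryocyte markers the sums were 39.9 to 65.8, 26.1 to 36.5, 32.5 to 71.2 and 15.1 to 23.1 CPM, mostly ITGA2B, which fell with the drug in hemin-treated cells (log2 fold change -2.09). Against that sum, ITGB3 rose from a mean of 1.44 to 6.30 CPM and GP1BA from 0.40 to 1.60 (log2 fold changes 2.12 and 2.0), so 2 of the 3 megakaryocyte markers tested were higher, while the platelet genes PF4 and GP9 stayed at 3 counts or fewer in every library of hemin nilotinib. The sums over 4 lymphocyte markers did not exceed 15.7 CPM. The part of these shifts in the results below was not tested, and in bulk RNA fewer cells of a type and less RNA per cell cannot be told apart.

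Because most of the regulators moved together, the DNA before their transcription starts is shown for members with a GATA motif, TAL1 and HEMGN, and for GATA2, which moved in the opposite direction. Promoter windows of 250 bases were available from RefSeq (GRCh38.p14) for 8 of the 10 genes, with 12 starts in all, and LMO2 and NFE2 were not in the table used. GATA motifs were sought on either strand as AGATAA, as the form AGATAG, as the form TGATAA and as the form TGATAG. They were present in 4 of the 12 windows, belonging to TAL1, GFI1B and HEMGN, against 22.3% of 35116 promoter windows of the same length. Capitals mark these motifs, which read as their reverse complement where the match is on the other strand. In the TAL1 window (chr1:47232336-47232585, minus strand) the motif lies 35 bases before the start, and in the first HEMGN window (chr9:97944853-97945102, minus strand) the motifs lie 179 and 14 bases before it. The first GATA2 window (chr3:128493202-128493451, minus strand) holds no such match, and neither does the second, which is not shown. The windows of GATA1, ZFPM1 and LDB1, which rose with the drug in hemin-treated cells, and of RUNX1 hold none either. The motif thus did not separate the genes that rose from the others.
TAL1: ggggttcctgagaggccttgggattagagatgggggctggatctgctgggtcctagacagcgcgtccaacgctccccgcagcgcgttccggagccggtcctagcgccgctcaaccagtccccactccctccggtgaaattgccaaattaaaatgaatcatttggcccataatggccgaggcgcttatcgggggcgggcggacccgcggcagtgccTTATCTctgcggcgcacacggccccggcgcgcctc
HEMGN: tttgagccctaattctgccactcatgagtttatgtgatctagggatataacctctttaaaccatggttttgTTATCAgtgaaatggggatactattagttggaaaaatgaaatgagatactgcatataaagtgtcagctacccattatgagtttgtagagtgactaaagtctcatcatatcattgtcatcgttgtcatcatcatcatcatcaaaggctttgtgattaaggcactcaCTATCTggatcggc
GATA2: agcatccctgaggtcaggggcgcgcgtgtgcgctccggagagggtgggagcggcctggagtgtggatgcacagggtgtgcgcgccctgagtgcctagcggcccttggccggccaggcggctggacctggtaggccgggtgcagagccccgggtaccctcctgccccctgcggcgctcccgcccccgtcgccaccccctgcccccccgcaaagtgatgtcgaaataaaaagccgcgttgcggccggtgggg

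The remaining GATA matches lie in windows that cover exons of other transcripts, so stretches of 30 bases are given in place of the windows. The GFI1B stretch (chr9:132978569-132978598, plus strand) holds 1 motif, and the stretch at the second HEMGN start (chr9:97938307-97938336, minus strand) holds a pair of adjoining motifs, 155 and 149 bases before that start. A further match, 114 bases before it, lies outside the stretch shown.
GFI1B: ggaaagtttTGATAAgcaaatacggctgag
HEMGN second start: tgtgcagtgTGATAAAGATAGtagaattag
The E-box CANNTG, the kind of site that TAL1 binds with E proteins, was in 5 of the 12 windows against 61.8% of all windows. The motif TGTGGT of RUNX factors was in 2 of 12 against 11%, and TGAGTCA, found within NFE2 sites, was in 0 of 12 against 4.2%. A match is a run of letters only and does not show that a factor binds there.

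Nilotinib raised 8 of the 10 transcripts in hemin-treated cells, lowered GATA2, and left RUNX1 without a call. The rises ran from 2.01-fold for GATA1 to 42.5-fold for HEMGN. Without hemin, 7 rose, GATA2 and RUNX1 fell, and GATA1 did not pass the threshold. Hemin given to vehicle-treated cells lowered 9 of the 10, RUNX1 among them, most steeply GFI1B, HEMGN and NFE2, and GATA2 did not pass. In cells already exposed to nilotinib, hemin changed none of the 10 past the threshold. That result depended on hemin nilotinib replicate 1, without which GATA2 and NFE2 were called.

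**Figure D1:**
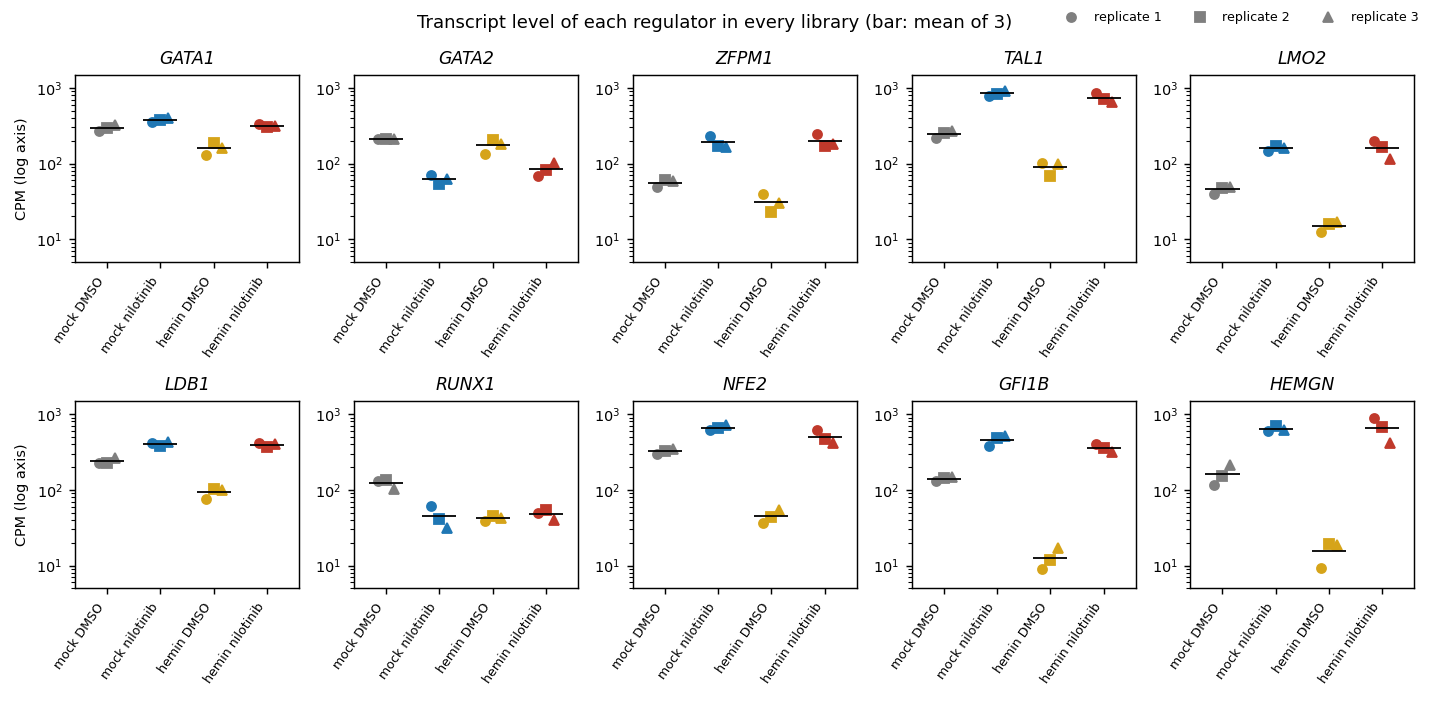
Level of each of the 10 regulators in the 12 libraries, as CPM on a log axis, with 1 marker shape per replicate number and a bar at the mean of each group of 3. For TAL1, LMO2, LDB1, NFE2, GFI1B, HEMGN and ZFPM1 both nilotinib groups sit above mock DMSO and hemin DMSO sits below it, while GATA2 is high in the vehicle groups and RUNX1 is high in mock DMSO alone.

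These counts stand against a background in which much of the transcriptome moved. A call is an adjusted p under 0.05 in the quasi-likelihood test of edgeR, adjusted by Benjamini-Hochberg over the 20821 genes, and every adjusted p below is from that test unless another tool is named. With hemin, nilotinib was called for 64.2% of genes tested (32.4% higher and 31.8% lower), against 9 of these 10 (8 higher and 1 lower), and the median log2 fold change of the 10 was 2.87 against 0.022 for all genes. Without hemin the drug was called for 42.5% (20.7% higher and 21.8% lower), again against 9 of 10 (7 higher and 2 lower), with a median of 1.36 against 0.00394. Hemin without nilotinib was called for 53.6% of genes (25.7% higher and 27.8% lower), against 9 of 10, all lower, with a median of -1.49 against -0.0467. Hemin with nilotinib was called for 5.80% (3.52% higher and 2.28% lower), against 0 of 10. The libraries of the groups did not overlap for 9 of the 10 with nilotinib and hemin, against 63.5% of all genes, for 10 without hemin against 61.0%, and for 10 with hemin alone against 62.7%. Comparisons that share a group are not independent of each other, since they use the same libraries.

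**Figure D2:**
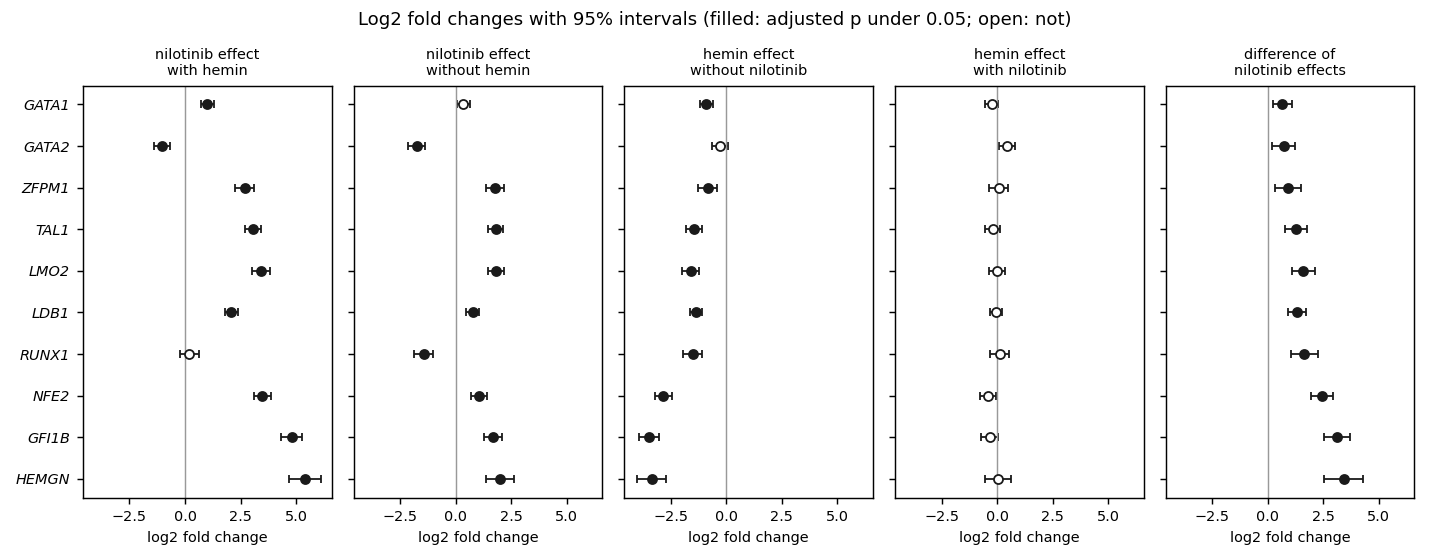
Log2 fold change of each regulator with its 95% interval in 4 comparisons, and the difference between the nilotinib effects with and without hemin, with filled points for adjusted p under 0.05. In the panel of hemin with nilotinib all 10 points are open and lie between -0.40 and 0.44, and in the panel of the difference all 10 are filled and above 0.

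GATA1 (chrX:48786554-48794311, plus strand; GRCh38, GENCODE 29) stood at 268, 296 and 325 CPM in mock DMSO, 355, 373 and 400 in mock nilotinib, 130, 186 and 158 in hemin DMSO, and 330, 306 and 315 in hemin nilotinib. The hemin DMSO libraries were the lowest, below every library of the other groups. Nilotinib with hemin raised GATA1 by 1.0 on the log2 scale (SE 0.14, adjusted p = 1.23e-05), and hemin alone lowered it by 0.91 (log2 fold change -0.91, SE 0.14, adjusted p = 5.52e-05). The nilotinib libraries without hemin lay above the mock DMSO libraries with no overlap, yet the log2 fold change of 0.34 (SE 0.14, 95% interval 0.05 to 0.64) had an adjusted p of 0.0572. It passed in 7 of 18 alternative analyses, DESeq2 among them, where adjusted p ranged from 0.00183 to 0.208. Hemin nilotinib and mock DMSO were neighbours in the order of levels and were not told apart (log2 fold change 0.10, 95% interval -0.20 to 0.39).

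GATA2 (chr3:128479427-128493185, minus strand), the progenitor factor, had the opposite pattern. Its levels were 208, 210 and 214 CPM in mock DMSO, 70.6, 53.9 and 62.1 in mock nilotinib, 132, 205 and 184 in hemin DMSO, and 68.4, 81.6 and 103 in hemin nilotinib. Every nilotinib library lay below every vehicle library. The drug lowered GATA2 by 1.76 without hemin (log2 fold change -1.76, SE 0.18, adjusted p = 8.02e-07) and by 1.04 with it (log2 fold change -1.04, SE 0.17, adjusted p = 6.94e-05). Hemin moved it little: -0.28 in vehicle-treated cells (SE 0.17, adjusted p = 0.181) and 0.44 in drug-treated cells (SE 0.17, adjusted p = 0.146). The first of these passed in 2 of 18 alternatives, without composition factors (-0.52) and without hemin DMSO replicate 2 (-0.45), over an adjusted p range of 0.0202 to 0.489.

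The balance of the GATA factors was read within each library, where library scaling cancels. GATA1 had 1.29, 1.41 and 1.52 counts for each GATA2 count in mock DMSO, and 0.984, 0.909 and 0.862 in hemin DMSO. The ratios were 5.04, 6.92 and 6.43 in mock nilotinib, and 4.83, 3.76 and 3.05 in hemin nilotinib. So GATA2 counts exceeded GATA1 counts in the 3 hemin DMSO libraries, and no other group went below 1. The log2 ratio averaged 0.49 ± 0.12, -0.13 ± 0.10, 2.60 ± 0.24 and 1.93 ± 0.33 in those 4 groups (SD, n = 3 each), with no overlap between any pair of groups. The exact two-sided permutation test gave p = 0.1 for each of the 6 pairs, before and after adjustment over them, which is the smallest p that 3 against 3 libraries allow. If replicate numbers are assumed to pair mock nilotinib with hemin nilotinib, the ratio was lower with hemin in 3 of 3 pairs. The paired exact permutation test gave p = 0.25, its own smallest value. GATA2 transcripts are longer than those of GATA1, so counts per kilobase favour GATA1 more strongly, with an FPKM ratio of 2.56 to 20.6 over the 12 libraries.

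**Figure D3:**
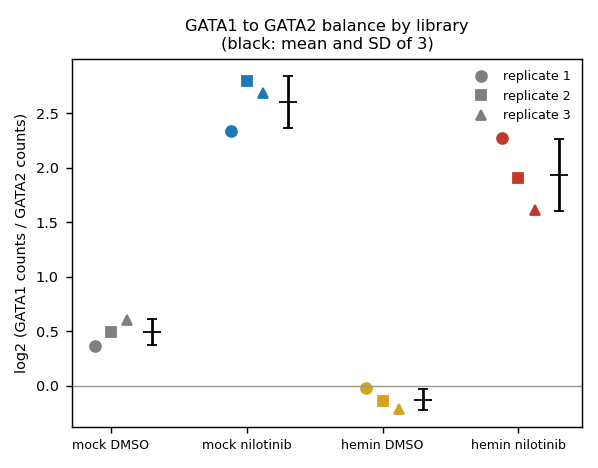
Log2 ratio of GATA1 to GATA2 counts in each of the 12 libraries, with black bars for the mean and SD of each group of 3. Hemin DMSO lies just below 0 with a mean of -0.13, mock DMSO just above it at 0.49, and both nilotinib groups at 1.93 or higher.

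ZFPM1 (chr16:88453317-88537016, plus strand), which encodes FOG1, stood at 48.5, 60.3 and 58.3 CPM in mock DMSO, 233, 173 and 165 in mock nilotinib, 39.8, 23.0 and 30.4 in hemin DMSO, and 245, 169 and 184 in hemin nilotinib. Both nilotinib groups were above both vehicle groups in every library. The drug raised ZFPM1 by 2.68 with hemin (SE 0.21, adjusted p = 2.08e-08) and by 1.77 without it (SE 0.20, adjusted p = 2.97e-06), log2 fold changes that correspond to 6.41-fold and 3.42-fold. Hemin lowered it in vehicle-treated cells (log2 fold change -0.84, SE 0.20, adjusted p = 0.00194).

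TAL1, LMO2 and LDB1, the core of the assembly that GATA1 joins, had a shared order of groups: both nilotinib groups on top, mock DMSO next, and hemin DMSO lowest. TAL1 (chr1:47216290-47232220, minus strand) stood at 216, 249 and 266 CPM in mock DMSO, 784, 837 and 916 in mock nilotinib, 100, 68.8 and 97.1 in hemin DMSO, and 864, 711 and 641 in hemin nilotinib. The drug raised it by 3.06 with hemin (SE 0.18, adjusted p = 8.51e-10) and by 1.80 without hemin (SE 0.17, adjusted p = 3.97e-07), and hemin alone lowered it (log2 fold change -1.46, SE 0.17, adjusted p = 2.93e-06). An antisense gene, AL135960.1, covers 14.82% of the TAL1 exon length on the opposite strand. How strand was used in counting was not given, so reads of the pair cannot be told apart there.

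LMO2 (chr11:33858576-33892289, minus strand) was the scarcest of the 3 in CPM. It had 39.9, 46.9 and 49.6 CPM in mock DMSO, 146, 171 and 162 in mock nilotinib, 12.5, 15.7 and 16.7 in hemin DMSO, and 201, 164 and 115 in hemin nilotinib. The drug effect was 3.41 with hemin (SE 0.19, adjusted p = 6.33e-10) and 1.81 without (SE 0.18, adjusted p = 6.75e-07), and hemin alone moved it by -1.60 (SE 0.18, adjusted p = 2.55e-06). The groups that differed in these tests did not overlap.

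LDB1 (chr10:102107560-102120453, minus strand) had smaller log2 fold changes for nilotinib than TAL1 and LMO2. Its levels were 228, 228 and 262 CPM in mock DMSO, 413, 381 and 424 in mock nilotinib, 76.5, 101 and 101 in hemin DMSO, and 415, 365 and 399 in hemin nilotinib. The log2 fold changes were 2.08 for nilotinib with hemin (SE 0.14, adjusted p = 4.60e-09), 0.76 for nilotinib without hemin (SE 0.14, adjusted p = 2.74e-04) and -1.37 for hemin alone (SE 0.14, adjusted p = 8.06e-07). Here too the nilotinib libraries, the mock DMSO libraries and the hemin DMSO libraries formed separate ranges.

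RUNX1 (chr21:34787801-36004667, minus strand) was high in 1 group. It stood at 129, 135 and 101 CPM in mock DMSO, 61.1, 41.7 and 30.9 in mock nilotinib, 38.5, 45.7 and 42.7 in hemin DMSO, and 50.0, 54.9 and 40.4 in hemin nilotinib. Mock DMSO was high and the 3 other groups overlapped. The log2 fold change with nilotinib alone was -1.45 (SE 0.20, adjusted p = 2.79e-05) and with hemin alone -1.53 (SE 0.20, adjusted p = 1.32e-05). With both, RUNX1 was no lower than with either: the log2 fold change of nilotinib in hemin-treated cells was 0.19 (95% interval -0.23 to 0.62, adjusted p = 0.406), and that of hemin in nilotinib-treated cells was 0.12 (95% interval -0.30 to 0.54, adjusted p = 0.776). The counts sum 17 annotated transcripts with 15 starts, so isoforms were not separated.

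NFE2 (chr12:54292111-54301121, minus strand), the erythroid partner of small MAF proteins, fell steeply with hemin in vehicle-treated cells. Its levels were 296, 326 and 347 CPM in mock DMSO, 620, 654 and 709 in mock nilotinib, 37.0, 43.5 and 54.3 in hemin DMSO, and 620, 470 and 414 in hemin nilotinib. The hemin effect was -2.84 (SE 0.18, adjusted p = 1.00e-08), and nilotinib alone raised it by 1.03 (SE 0.17, adjusted p = 1.17e-04). Set against hemin alone, nilotinib with hemin was 11.2-fold higher (log2 fold change 3.48, SE 0.18, adjusted p = 3.47e-10).

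GFI1B and HEMGN had the widest range of levels among the 10. GFI1B (chr9:132944000-132991687, plus strand) stood at 129, 145 and 149 CPM in mock DMSO, 374, 480 and 510 in mock nilotinib, 9.01, 12 and 17.2 in hemin DMSO, and 407, 358 and 313 in hemin nilotinib. HEMGN (chr9:97926791-97944856, minus strand) stood at 114, 154 and 216 CPM in mock DMSO, 607, 690 and 624 in mock nilotinib, 9.16, 19.1 and 18.7 in hemin DMSO, and 896, 680 and 420 in hemin nilotinib. For each gene the hemin DMSO libraries were several times lower than any other library, and HEMGN spread widely within hemin nilotinib.

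For GFI1B the log2 fold changes were 4.81 for nilotinib with hemin (SE 0.23, adjusted p = 1.21e-10), 1.69 for nilotinib without hemin (SE 0.20, adjusted p = 3.80e-06) and -3.47 for hemin alone (SE 0.21, adjusted p = 8.40e-09). For HEMGN they were 5.41 (SE 0.34, adjusted p = 2.22e-09), 1.99 (SE 0.29, adjusted p = 4.22e-05) and -3.36 (SE 0.31, adjusted p = 3.32e-07). These changes were larger than the spread between replicates, the HEMGN spread in hemin nilotinib included. TSC1 lies on the opposite strand over 5.72% of the GFI1B exon length, and counts there cannot be assigned to either gene.

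The effect of nilotinib differed between hemin and mock libraries for all 10 transcripts. By the study's methods the hemin libraries were also collected 24 h later. Hemin and a longer time since the drug was added cannot be told apart here. The difference of the nilotinib effects, with hemin minus without it, was positive and called in each, against 30.1% of all genes called in either direction and 17.1% called higher, with 13.0% lower. It was largest for HEMGN (3.42, SE 0.41, adjusted p = 3.08e-05), GFI1B (3.13, SE 0.28, adjusted p = 3.15e-06) and NFE2 (2.45, SE 0.24, adjusted p = 5.66e-06). The smallest were ZFPM1 (0.91, SE 0.28, adjusted p = 0.0212), GATA2 (0.72, SE 0.24, adjusted p = 0.0343) and GATA1 (0.66, SE 0.20, adjusted p = 0.0188). A positive sign covers different courses: for 8 genes it is a higher fold change with hemin than without, for GATA2 a smaller fall, and for RUNX1 a fall without hemin against no call with it. The GATA2 difference had an adjusted p under 0.05 in 11 of 22 alternatives (0.00365 to 0.0959). It was not called, at 0.55 to 0.75, when any 1 mock DMSO library, mock nilotinib replicate 2 or 3, hemin DMSO replicate 1, or hemin nilotinib replicate 2 or 3 was left out. It was also not called with upper-quartile factors (0.60) and in limma on FPKM with either pseudocount (0.65 and 0.68), which with those omissions makes the 11 losses by adjusted p. The ZFPM1 difference had an adjusted p under 0.05 in 20 of 22 (0.000167 to 0.0604), the exceptions for ZFPM1 being the analyses without mock nilotinib replicate 2 and without mock nilotinib replicate 3, at 0.84 and 0.80. These counts leave aside the size rule of the alternative with a 2-fold minimum. The differences for GATA1, GATA2 and ZFPM1 (0.66, 0.72 and 0.91) fell short of 2-fold and were not called there.

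The same difference can be read from hemin. In drug-treated cells hemin moved the regulators by -0.40 (NFE2) to 0.44 (GATA2) on the log2 scale, with 0 called by edgeR, 0 by DESeq2 and 2, GATA2 and NFE2, at an unadjusted p under 0.05. The intervals bound the change that could have been missed: -0.36 to 0.37 for LMO2, -0.33 to 0.24 for LDB1, -0.54 to 0.15 for TAL1 and -0.54 to 0.65 for HEMGN. GATA1 was the one gene of the 10 whose libraries did not overlap here, against 23.3% of all genes, at -0.25 on the log2 scale (SE 0.14, adjusted p = 0.329). Leaving out hemin nilotinib replicate 1 gave calls for GATA2 (0.57) and NFE2 (-0.58). Within its group that library was highest in GATA1, ZFPM1, TAL1, LMO2, LDB1, NFE2, GFI1B and HEMGN, and lowest in GATA2. For the marker TFRC that library held 2845 CPM, against 519 and 429 in replicates 2 and 3 and 2503 to 3006 in mock nilotinib. For the small MAF gene MAFF it held 3.39 CPM, against 10.6 and 15.0 in replicates 2 and 3 and 3.70 to 4.27 in mock nilotinib. For HBZ it held 8630 CPM, against 5236 and 3215 in replicates 2 and 3, and 2493 to 3272 in mock nilotinib, so not every gene of that library was near mock nilotinib. What set it apart was not tested.

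Nilotinib alone and hemin alone set the regulators far apart. Set against hemin DMSO, mock nilotinib was higher for 8 of the 10 and lower for GATA2, against 65.8% of all genes called (32.5% higher and 33.4% lower), and libraries did not overlap for 9, against 70.2%. The log2 fold changes were 5.35 for HEMGN, 5.15 for GFI1B, 3.88 for NFE2, 3.41 for LMO2, 3.25 for TAL1, 2.62 for ZFPM1, 2.13 for LDB1 and 1.25 for GATA1. RUNX1 was not called (0.08, 95% interval -0.35 to 0.50, adjusted p = 0.753). Cells given both agents, set against cells given neither, had 7 of the 10 higher and GATA2 and RUNX1 lower, against 46.6% of all genes called (24.2% higher and 22.4% lower), with GATA1 near its starting level.

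On a scale per gene length, which allows genes to be compared with each other, GATA1 was among the most abundant transcription factor transcripts of these cells throughout. By mean FPKM it ranked 5 of 1175 annotated transcription factor genes in mock DMSO, mock nilotinib and hemin nilotinib, and 12 in hemin DMSO, with mean levels of 195, 248, 207 and 106 FPKM. NFE2 ranked 10 in mock DMSO, 4 in mock nilotinib, 119 in hemin DMSO and 6 in hemin nilotinib. TAL1 ranked 38, 8, 138 and 9 in the same order, and GFI1B ranked 86, 19, 627 and 27. GATA2 went the other way, from 31 in both vehicle groups to 147 in mock nilotinib and 106 in hemin nilotinib. ZFPM1 ranked 239, 59, 410 and 49, and RUNX1 fell from 282 to ranks of 536 to 560. LMO2, LDB1 and HEMGN are not in the factor annotation of the table and were not ranked. Their FPKM were 14.4, 50.7, 4.85 and 50.4 for LMO2, 84.8, 144, 33.5 and 138 for LDB1, and 66.5, 265, 6.58 and 273 for HEMGN, in that order of groups. Per length, the LIM-only bridge LMO2 was thus scarcer than its partner LDB1 in every group.

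Likeness of pattern was measured as the root mean square difference of log2 CPM, each gene centred on its own mean, over the 12 libraries. Within the 10, TAL1 and LMO2 were closest (0.23), followed by ZFPM1 and TAL1 (0.31), GFI1B and HEMGN (0.37), and GATA1 and LDB1 (0.42). GFI1B was the nearest of 12494 genes to HEMGN. The genes nearest to GATA1 were EPB41 (0.10), CCDC125 (0.11) and STK25 (0.11), and those nearest to GATA2 were TIMM44 (0.20), UTRN (0.23) and CNKSR3 (0.23). For RUNX1 they were SLC27A2 (0.19), ZBED6CL (0.24) and FIRRE (0.25), and for NFE2 BX890604.2 (0.19), LINC00638 (0.24) and TNFRSF1B (0.24). Measured over the 4 group means instead, the first-named gene ranked 31 for GATA1, 37 for GATA2, 20 for RUNX1 and 8 for NFE2, so the order of near genes depended on the measure.

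The partners of these proteins moved less uniformly. Of 12 genes for E proteins, LIM, SSBP and core binding factor partners, 11 were tested, and nilotinib with hemin raised 6 and lowered 5, against 32.4% and 31.8% of all genes, with a median log2 fold change of 0.72 against 0.022 for all genes. Among the E proteins, which pair with TAL1, TCF4 (2.14, SE 0.14) and TCF3 (1.23, SE 0.13) rose and TCF12 fell (-0.64). LYL1, the TAL1 relative, rose by 1.45, and CBFA2T3, the ETO2 corepressor of the assembly, rose by 1.44. CBFB, the subunit that RUNX1 needs, averaged 74.6 CPM in mock DMSO, 22.7 in mock nilotinib, 80.1 in hemin DMSO and 15.4 in hemin nilotinib. It fell by 2.38 with hemin and by 1.71 without (log2 fold changes -2.38 and -1.71, adjusted p = 3.84e-09 and 2.53e-07), so in mock nilotinib both subunits of that pair were below mock DMSO.

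The corepressor complexes that GATA1, FOG1 and GFI1B recruit changed by smaller amounts. Of 13 NuRD genes, nilotinib with hemin raised 4 and lowered 4, a share near that of all genes (32.4% higher and 31.8% lower), with a median of 0.10. MBD3 rose by 1.39, RBBP7 by 0.62 and MTA1 by 0.52, while GATAD2A (-1.15), GATAD2B (-0.58) and HDAC2 (-0.33) fell. Of 4 CoREST genes, RCOR3 rose (0.91) and none fell, and KDM1A, which encodes the demethylase LSD1, was at -0.05 (adjusted p = 0.722). Without hemin, the drug raised 2 and lowered 2 of the 13 NuRD genes, and raised 1 and lowered 2 of the 4 CoREST genes, against 20.7% and 21.8% of all genes.

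The 3 small MAF genes and BACH2, whose products share DNA sites with NFE2, rose with hemin alone, where NFE2 and BACH1 fell. In vehicle-treated cells hemin raised 5 of the 8 MAF, BACH and NFE2-like genes and lowered 2, against 25.7% and 27.8% of all genes, and had a median of 1.0 against -0.0467 for all genes. MAFF rose by 2.24, BACH2 by 1.91, MAFG by 1.44 and MAFK by 1.35, and BACH1, the heme-sensing repressor, was lower by 0.46 (log2 fold change -0.46, adjusted p = 0.0226). MAFG, the most abundant of the small MAF genes, averaged 238 CPM in mock DMSO, 248 in mock nilotinib, 647 in hemin DMSO and 458 in hemin nilotinib. Its hemin nilotinib libraries spread widely, at 272, 493 and 609 CPM for replicates 1 to 3. Nilotinib with hemin raised BACH1 (1.46) and NFE2L3 (0.73) and lowered 4, among them MAFF (-2.52), BACH2 (-2.18) and MAFK (-1.42), while MAFG did not pass (-0.50, adjusted p = 0.0513).

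Among 11 paralogs of the 10, ZFPM2, named after its values were seen, averaged 21.1 to 30.5 CPM over the groups and GATA5 reached 14.3 CPM in mock nilotinib. The others averaged under 5 CPM in every group. GATA3 averaged 0.13 CPM in mock DMSO and 0.30 in hemin DMSO, and had 0 counts in the 6 nilotinib libraries, which allows up to 3 counts in each. GFI1, the paralog of GFI1B in myeloid cells, averaged 4.26 CPM in mock DMSO, 1.63 in mock nilotinib, 1.79 in hemin DMSO and 0.722 in hemin nilotinib, and fell with nilotinib in hemin-treated cells (log2 fold change -1.30, adjusted p = 0.00201). Of 8 paralogs tested, nilotinib with hemin raised 3 and lowered 4, against 32.4% and 31.8% of all genes, with a median of -0.43, and each of the 7 had a mean under 9 CPM in both hemin groups.

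Factors of other lineages mostly fell with the drug. Of 9 myeloid, ETS and stem cell factors, 7 were tested, and nilotinib lowered 5 with hemin, against 31.8% of all genes, and 6 without, against 21.8%, with medians of -2.01 and -1.19. SPI1, which encodes the myeloid factor PU.1, an antagonist of GATA1, averaged 74.9 CPM in mock DMSO, 15.3 in mock nilotinib, 59.8 in hemin DMSO and 8.94 in hemin nilotinib, with log2 fold changes for the drug of -2.29 without hemin and -2.74 with it (adjusted p = 4.22e-09 and 3.33e-10). HHEX and ETS1 fell as well, by log2 fold changes of -2.28 and -2.81 with hemin. IKZF1, the lymphoid and erythroid factor Ikaros, was the one that rose (2.08). FLI1, a megakaryocyte ETS factor, was listed at 0 counts in all 12 libraries.

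Genes known to be activated by GATA1 rose with the drug. All 11 on the list did so in hemin-treated cells, against 32.4% of all genes. Their median log2 fold change was 4.34, against 1.0 for GATA1 itself. ALAS2, the erythroid enzyme of heme synthesis, rose by 5.52, SLC4A1, the band 3 anion exchanger, by 9.78, and AHSP, the alpha globin chaperone, by 5.56. Without hemin 10 rose, against 20.7% of all genes, and the survival gene BCL2L1, named after its value was seen, fell (log2 fold change -1.45). Hemin alone lowered 9, against 27.8% of all genes. Of 5 genes known to be repressed by GATA1, 4 were tested. Nilotinib lowered 3 with hemin and 4 without, against 31.8% and 21.8% of all genes. Hemin alone, with which GATA1 fell, lowered 2 of these 4 and raised 0, against 27.8% and 25.7% of all genes. Vimentin (VIM) fell by 4.20 and the receptor kinase KIT by 2.81 in hemin-treated cells (log2 fold changes -4.20 and -2.81).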

How the data were processed

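Total RNA of 12 K562 libraries was sequenced as 150-base read pairs. Raw counts per gene were deposited by the authors, who had them from a sequencing service and did not normalize them, and each count test started from them. The authors also deposited FPKM, which on inspection are counts per kilobase divided by median-of-ratios size factors, the scaling of DESeq2. They served for levels between genes and in limma alternatives with a pseudocount of 1 or 0.1. A table of mean FPKM per group was not used. The submitters' processing notes name GRCh38.p12, DESeq and DESeq2, and the aligner, counter and strand setting are not given in the sources used here.

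Tests on counts used edgeR 4.0.16 under R 4.3.3: filterByExpr (minimum count 10, total 15), TMM, and a quasi-likelihood fit of 1 mean per group over all 12 libraries, with two-sided Benjamini-Hochberg adjusted p and a threshold of 0.05. SE is the absolute log2 fold change over the root of F, and intervals are 95%. On simulated counts of 20821 genes, nilotinib with hemin recovered 75% of 100 genes changed 2-fold and 100% of 100 changed 4-fold with 7 false calls, and the interaction recovered 27% and 95% with 4 false calls. Only those genes were changed, in 1 group and with 1 dispersion for all genes. In the data 64.2% of genes were called for nilotinib with hemin, so the simulated rates need not hold there. Alternatives were DESeq2 1.42.0, limma 3.58.1 on FPKM, other scaling, filters, a 2-fold minimum, the libraries of a comparison alone, a replicate block, and the omission of single libraries. Ratios of GATA1 to GATA2 were compared by exact permutation. Counting error sets a limit of 3 counts where a gene has 0.

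The 10 genes, the lists around them and the tests were chosen with earlier results of these data known. Named in full were the 10 members, and from each list at most the 3 largest rises and 3 largest falls past the threshold for nilotinib with hemin, plus TCF3, LYL1, CBFA2T3, CBFB, KDM1A, MAFG, BACH1, SPI1, FLI1, GFI1 and GATA3. For GATA1, GATA2, RUNX1 and NFE2 the 3 nearest genes with a mean of at least 100 counts were named. A pair of listed genes is not reported here, and the lists were counted without them. Positions came from GENCODE 29, which holds all 58735 identifiers, 58724 of them with the same start and end. Promoter windows came from RefSeq. Nothing in the labels gives a batch, and groups came from the sample titles. Replicate numbers came from the titles too. Deviations of same-numbered libraries correlated above 0.1 in all 3 pairs for mock nilotinib and hemin nilotinib (0.199 to 0.263) and for no other pair of groups. The numbers were therefore taken to pair these libraries alone. Mock DMSO and mock nilotinib came near that cut (0.0869 to 0.0989). Libraries with unlike numbers were not correlated, so the pairing is an assumption. Python 3.11.15 and matplotlib 3.10.9 served for annotation and plots.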

Additional observations from a re-analysis of the deposited data

Results flagged for a closer look

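For each of the 10 regulators the effect of nilotinib differed between hemin and mock libraries by the interaction test, which brought it to notice. By the study's methods these libraries also differ in time, and hemin and time cannot be told apart. The differences, with hemin minus without, were 3.42 for HEMGN, 3.13 for GFI1B, 2.45 for NFE2, 1.64 for RUNX1, 1.61 for LMO2, 1.32 for LDB1, 1.26 for TAL1, 0.91 for ZFPM1, 0.72 for GATA2 and 0.66 for GATA1 on the log2 scale. All 10 had an adjusted p under 0.05 in edgeR's quasi-likelihood test, against 30.1% of all genes. RUNX1 was the one gene that either agent alone lowered and that the second agent did not lower further.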

How the results depend on the processing

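The 55 calls of regulators over the 7 contrasts were repeated under 18 or 22 alternatives each, which gave 1030 results. None of these reversed, 21 were no longer called, and 53 of the 55 stayed called in every alternative apart from the 2-fold minimum, the exceptions being the GATA2 and ZFPM1 interactions. For hemin with nilotinib, where no regulator was called, signs near 0 turned. LMO2 was -0.0062 with RLE factors, -0.0079 with upper-quartile factors, -0.035 without factors, -0.0061 in DESeq2, -0.029 in the 6 libraries alone with the replicate block, and -0.043 and -0.044 on FPKM. HEMGN was -0.0092 with that block and -0.024 and -0.025 on FPKM, and RUNX1 in nilotinib alone against hemin alone was -0.0030 on FPKM with the smaller pseudocount. With 1 library left out, hemin with nilotinib ranged from -0.19 to 0.19 for LMO2, -0.22 to 0.30 for HEMGN, -0.11 to 0.24 for ZFPM1, -0.091 to 0.0038 for LDB1 and -0.088 to 0.42 for RUNX1, and RUNX1 in nilotinib alone against hemin alone from -0.22 to 0.28.

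Counts over all genes were least stable for hemin with nilotinib: 1208 genes as reported, 1974 in DESeq2, 1987 with every gene of at least 1 count, 213 in the 6 libraries alone, 741 and 694 on FPKM and 565 with a 2-fold minimum. Leaving out 1 library gave 198 to 2774 genes and 0 to 2 regulators there, the highest of both without hemin nilotinib replicate 1 and the lowest count of genes without mock nilotinib replicate 2. The cause was not tested. With a 2-fold minimum, calls came to 4872 genes for nilotinib without hemin, 6474 for hemin without nilotinib, 5518 for both against neither and 4073 for the interaction. The replicate block gave 1587 genes for hemin with nilotinib over 12 libraries and 1880 in its 6 libraries alone, with 0 regulators called in both. For GATA1 in nilotinib without hemin, whose libraries were not taken as paired, the block over 12 libraries gave an adjusted p of 0.0437. The block in the 6 libraries of that comparison alone gave 0.00183 (0.00183 to 0.208 over its alternatives). The block changed no other call of a regulator. For the GATA1 to GATA2 ratio, pairing by replicate number, chosen after seeing the data, kept the difference for hemin with nilotinib at -0.67.

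Without composition factors the median of all genes shifted by -0.240 for hemin without nilotinib and by 0.209 for the interaction. The share of calls that were higher went from 48.0% to 33.9% and from 56.7% to 73.3%, with 46.3% for the interaction under upper-quartile factors and, for hemin with nilotinib, 60.7% as reported and 49.2% without factors. No called gene of the lists changed direction under the 3 other scalings. In 3 against 3 libraries the exact test cannot go below 0.1. At 3 replicates 27% of interactions of 2-fold were recovered in a simulation with far fewer changed genes than these data. A regulator without a call may still differ.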
